A study of Mus musculus with 12 samples.

Results

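Lysosomal enzymes and their partners were followed in single-cell RNA profiles of engrafted microglia-like cells (MLCs), endogenous microglia and 4 naive cell populations of the mouse. The 46 genes were chosen by symbol, for what their products are known to do, and comprise soluble hydrolases, cathepsins, activators and membrane proteins of the lysosome, most of them mutated in a lysosomal storage disease. They are 46 of the 31054 features of the treated libraries, and all 46 are listed in each of the 12 libraries. By role, the list holds 8 papain-type cathepsins, 4 other proteases, 13 enzymes that cut sugars from glycans or glycolipids, 6 sulfatases or sulfatase activators, 1 acetyltransferase of heparan sulfate, 5 lipid hydrolases, 3 activators or cofactors, and 6 membrane or lipid transfer proteins.

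The lysosome is the acidic compartment in which cells take apart proteins, glycans and lipids, and loss of one of its enzymes lets the uncut substrate build up, which is the basis of a storage disease. Many of its soluble enzymes are tagged with mannose 6-phosphate and can be secreted and taken up by neighboring cells, so that a cell carrying a working copy can supply cells that lack it. Microglia and other macrophages are rich in lysosomes, and cells of the hematopoietic lineage that settle in the brain are used as a source of such enzymes.

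All animals were C57BL/6J mice. The 4 treated mice were conditioned with busulfan, an alkylating drug, and received hematopoietic stem and progenitor cells of male donors transduced with a lentiviral vector for GFP, either intravenously (i.v.; 1 female and 1 male) or intracerebroventricularly (i.c.v.; 1 female and 1 male), and each also received untransduced total bone marrow by vein. Brain cells in the CD45+ CD11b+ CX3CR1+ gate were sorted into GFP+ cells, called MLCs here, and GFP- cells, called endogenous microglia, so each mouse gave 1 library of each sort. Donor-derived cells without GFP would fall in the GFP- sort. Their share was not measured, and it limits every comparison with GFP- cells below. Treated mice are put at 22 to 28 weeks of age by the labels, whereas the design text has them sampled 12 to 13 months after dosing. The naive cells were microglia, astrocytes and neurons sorted from brain, and peripheral blood mononuclear cells (PBMCs), 1 library each from an animal of 8 to 12 weeks. With 1 library per sort and mouse, the p-values given here measure the spread between these libraries.

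Kept cells numbered 2266 to 3536 in the GFP+ libraries, with 8835197 to 16514669 unique molecular identifiers (UMIs, the molecules counted) in all, and 2675 to 4555 in the GFP- libraries, with 4970758 to 8105756 UMIs. Median UMIs per cell were 3499 in MLCs of the i.v.-dosed female, 1058 to 1308 in the other GFP+ libraries and 842 to 1034 in the GFP- libraries. The naive libraries held 341 to 1274 cells with medians of 425 to 6937 UMIs, the naive microglia being the shallowest. At most 8 barcodes, 0.348% of the smaller library, were shared by any of the 66 pairs of libraries. At least 3 of 8 microglia markers were found in 81.4 to 89.2% of GFP- cells and in 46.3 to 63.5% of GFP+ cells, and at least 3 of 8 markers of CNS-associated macrophages (CAMs) in 3.25 to 9.25% of GFP- and 22.3 to 30.0% of GFP+ cells. Summed over the list, microglia markers stood at 6633 to 9189 CPM (counts scaled to a common library total) in GFP- and 3176 to 6012 in GFP+ libraries, CAM markers at 777 to 1239 and 1305 to 1789, and none of either list was at 0. GFP+ libraries thus held fewer cells with microglia markers and more with CAM markers than GFP- libraries. Among the naive libraries, 96.2% of cells of the neuron sort held at least 3 oligodendrocyte markers and 0.522% held at least 3 neuron markers, so this library is named here by its sort only. The naive PBMCs were a mix, with at least 3 monocyte markers in 48.1% of cells, B cell markers in 36.7% and erythroid markers in 14.4%.

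To ask how MLCs compare with endogenous microglia of the same brains, UMIs were summed per library and the 4 GFP+ libraries were tested against the 4 GFP- libraries by the quasi-likelihood test of edgeR, with Benjamini-Hochberg adjustment over 11756 genes. Of the 45 members tested, 12 passed at an adjusted p under 0.05 as higher in MLCs and 3 as lower on the TMM scale (edgeR's scaling for composition), against 6 higher and 9 lower with library totals and 3 higher and 5 lower with cells thinned to equal depth. On the TMM scale, called genes were 33.3% of the members tested, against 32.5% of all genes (16.6% higher and 15.9% lower), a share close to that of the background. The median log2 fold change was 0.17 over the members and 0.01 over all genes. At an unadjusted p under 0.05 there were 20 of the 45 members and 5261 of the 11756 genes, again a share close to the background. The lowest GFP+ library exceeded the highest GFP- library for 13 members, the 12 called plus Psap, where 16.8% of all genes did so, and the reverse held for 4 members, the 3 called plus Naglu, where 17.9% of all genes did so. The members together took 2.66% ± 0.345 (SD, n = 4) of UMIs in GFP+ and 2.64% ± 0.0452 (SD, n = 4) in GFP- libraries. The mean share was nearly the same in the sorts while single members moved in both directions.

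**Figure D1:**
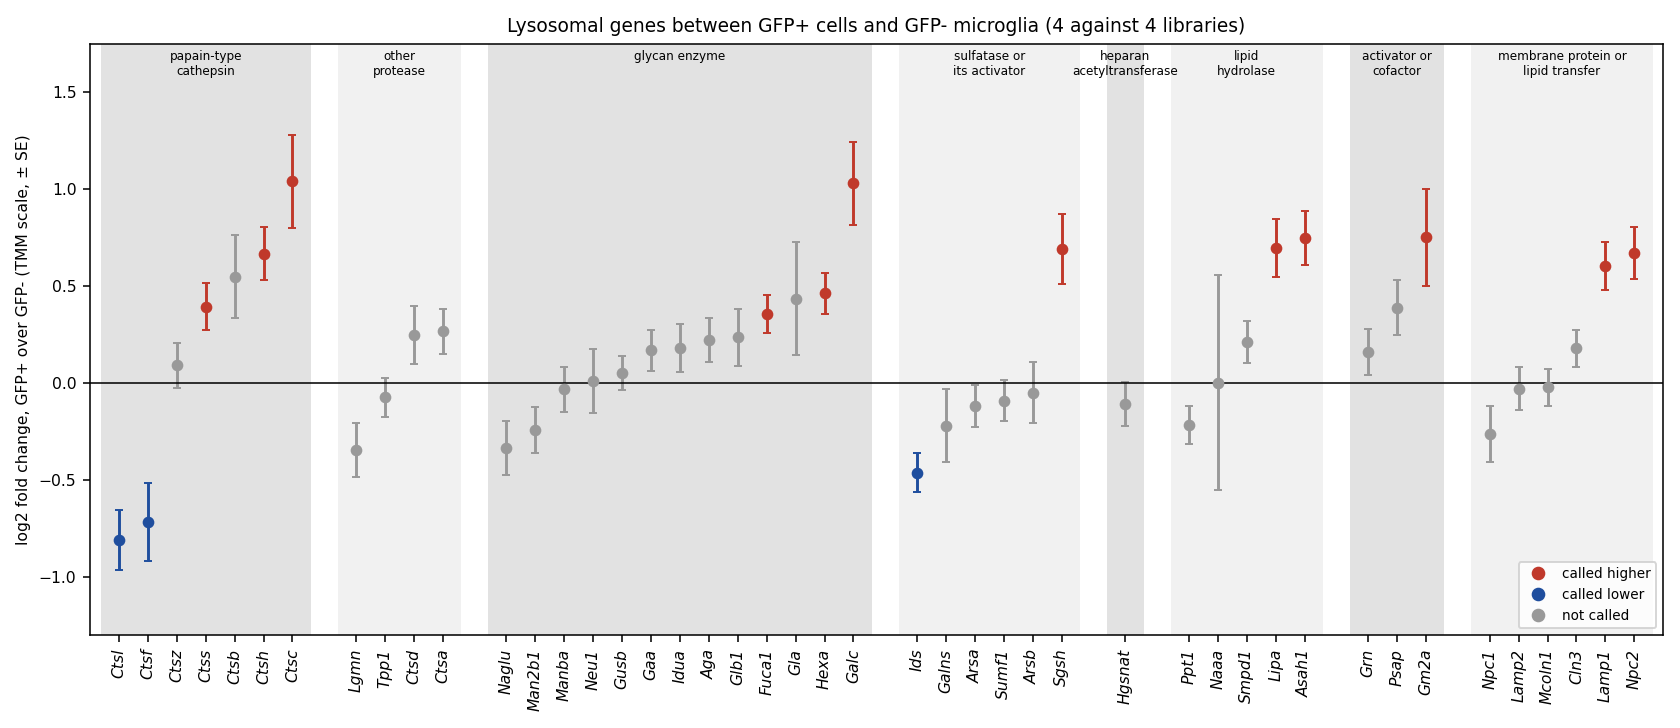
Log2 fold change of GFP+ over GFP- cells for the 45 tested lysosomal genes, grouped by role on the x axis, with points for edgeR estimates on the TMM scale and bars for ± SE (4 against 4 libraries). The 12 genes called higher and the 3 called lower are colored, and the estimates run from Ctsl at -0.81 to Ctsc at 1.04.

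The papain-type cathepsins, a family of related cysteine proteases, held the lowest and the highest fold changes of the list. In what follows, levels are CPM normalized by TMM, they are given per library in the order i.v.-dosed female, i.v.-dosed male, i.c.v.-dosed female, i.c.v.-dosed male, and they are not compared between genes. Ctsc, a dipeptidyl peptidase that activates serine proteases of immune cells (chr7:88278085-88310888, plus strand, GRCm38), stood at 1022, 1267, 964 and 1320 CPM in GFP+ and at 336, 493, 774 and 618 CPM in GFP- libraries. All GFP+ libraries lay above all GFP- libraries, with means of 1143 ± 177 and 555 ± 186 (SD, n = 4 each) and a log2 fold change of 1.04 (SE 0.24, adjusted p = 0.0118). Ctsh, an aminopeptidase of the same family, was measured at 1059, 920, 730 and 925 CPM in GFP+ and at 596, 507, 576 and 608 CPM in GFP- libraries. It rose by 0.67 on the log2 scale (SE 0.14, adjusted p = 0.00762), and the libraries of the sorts did not overlap. Ctss, which trims the invariant chain of MHC class II molecules, read 5162, 4256, 5136 and 4891 CPM in GFP+ and 3725, 3460, 3686 and 3908 CPM in GFP- libraries. Its log2 fold change was 0.39 (SE 0.12, adjusted p = 0.0360), with no overlap between sorts. With the mouse as a block the adjusted p for Ctss was 0.0732, and it passed in 1 of the 8 fits that left out a library, that without MLCs of the i.v.-dosed male (adjusted p up to 0.0971 in the others).

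2 cathepsins went the other way. Ctsl, a broad endopeptidase (chr13:64359337-64370890, minus strand), stood at 358, 366, 476 and 504 CPM in GFP+ and at 804, 769, 615 and 801 CPM in GFP- libraries. The highest GFP+ library was below the lowest GFP- library, and Ctsl fell by 0.81 on the log2 scale (SE 0.16, adjusted p = 0.00591). Ctsf, mutated in an adult form of neuronal ceroid lipofuscinosis (chr19:4855130-4860918, plus strand), stood at 59.4, 59.2, 112 and 86.2 CPM in GFP+ and at 135, 135, 113 and 137 CPM in GFP- libraries. It fell by 0.72 (SE 0.20, adjusted p = 0.0255), but the 2 libraries of the i.c.v.-dosed female nearly met, and the call was lost in 5 of 8 fits that left out a library (adjusted p up to 0.0701), all but those without a GFP+ library of an i.c.v.-dosed mouse or endogenous microglia of the i.c.v.-dosed female. Ctsb, an endopeptidase and dipeptidase, had 2252, 2010, 3290 and 2538 CPM in GFP+ and 1324, 1550, 2356 and 1658 CPM in GFP- libraries. GFP+ was higher within each of the 4 mice, the sorts overlapped across mice, and Ctsb missed the threshold (log2 fold change 0.55, SE 0.21, adjusted p = 0.0764), which it passed with the mouse as a block (0.56, adjusted p = 0.0311). Ctsz had a log2 fold change of 0.09 (adjusted p = 0.577), and Ctsk, the collagenase of osteoclasts, was not tested because it failed the filter on low counts, with 0.0690 to 1.42 CPM over the 8 libraries.

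None of the 4 other proteases passed, beside 32.5% of all genes, and the group was not tested. Ctsd, an aspartic protease mutated in a congenital form of neuronal ceroid lipofuscinosis, had 6591, 5776, 7667 and 8436 CPM in GFP+ and 6009, 5583, 6192 and 6189 CPM in GFP- libraries. The sorts overlapped and the log2 fold change was 0.25 (SE 0.15, adjusted p = 0.230). A second coding gene, Gm49369, overlaps Ctsd on the same strand, so how reads were divided between them is uncertain. Lgmn, the asparaginyl endopeptidase that processes cathepsins, had a log2 fold change of -0.35 (adjusted p = 0.0855) and was lower in GFP+ within each of the 4 mice. The serine carboxypeptidase gene Ctsa, at 532, 470, 587 and 574 CPM in GFP+ and 401, 444, 478 and 473 CPM in GFP- libraries, had 0.27 (adjusted p = 0.105), and Tpp1, a tripeptidyl peptidase, had -0.07 (adjusted p = 0.606).

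Of the 13 glycan enzymes, 3 were called higher in MLCs and none lower, beside 16.6% and 15.9% of all genes, and the group was not tested. Galc, which removes galactose from galactosylceramide of myelin and is mutated in Krabbe disease (chr12:98202294-98259459, minus strand), stood at 81.6, 90.8, 109 and 108 CPM in GFP+ and at 29.8, 43.6, 65.2 and 50.9 CPM in GFP- libraries. The sorts were apart by more than the spread within either, and the log2 fold change was 1.03 (SE 0.21, adjusted p = 0.00781). Hexa, the alpha subunit of hexosaminidase A that is lost in Tay-Sachs disease, had 708, 610, 644 and 741 CPM in GFP+ and 493, 469, 495 and 503 CPM in GFP- libraries. It rose by 0.46 (SE 0.11, adjusted p = 0.0115), and its GFP- libraries were close to each other, at 490 ± 14.5 (SD, n = 4). Fuca1, the fucosidase of fucosidosis, had 204, 182, 171 and 192 CPM in GFP+ and 156, 136, 155 and 138 CPM in GFP- libraries. Its log2 fold change was 0.36 (SE 0.10, adjusted p = 0.0244), and 4 of 8 fits that left out a library lost the call (adjusted p up to 0.0778), namely those without either library of the i.c.v.-dosed male, MLCs of the i.v.-dosed female or endogenous microglia of the i.v.-dosed male. The other 10 (Aga, Gaa, Gla, Glb1, Gusb, Idua, Man2b1, Manba, Naglu and Neu1) ranged from -0.33 for Naglu (adjusted p = 0.0947) to 0.44 for Gla (adjusted p = 0.274), and Naglu, an N-acetylglucosaminidase that acts on heparan sulfate, was the one whose GFP- libraries all lay above the GFP+ libraries. Glb1 shares its strand with the coding gene Tmppe, so its reads too may be divided.

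Enzymes that act on heparan sulfate did not move together. Sgsh, the sulfamidase lost in Sanfilippo syndrome type A (chr11:119343425-119355536, minus strand), had 19.5, 20.4, 28.2 and 26.9 CPM in GFP+ and 10.8, 14, 18.1 and 15.5 CPM in GFP- libraries. It rose by 0.69 (SE 0.18, adjusted p = 0.0191), with no overlap, and 1 of 8 fits that left out a library lost the call, that without endogenous microglia of the i.v.-dosed male (adjusted p = 0.0600). Ids, the iduronate sulfatase lost in Hunter syndrome (chrX:70343069-70365084, minus strand), had 29.6, 29.7, 28.2 and 33.2 CPM in GFP+ and 37.3, 46.9, 40.0 and 42.1 CPM in GFP- libraries. It fell by 0.46 (SE 0.10, adjusted p = 0.00894), again with no overlap. Arsa, Arsb, Galns and Sumf1, the other sulfatases and the enzyme that activates sulfatases, had log2 fold changes between -0.22 and -0.05 and did not pass. Hgsnat, the heparan acetyltransferase, had 22.4, 19.5, 26.1 and 26.6 CPM in GFP+ and 25.4, 24.6, 25.8 and 26.1 CPM in GFP- libraries, with a log2 fold change of -0.11 (SE 0.11, adjusted p = 0.484).

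Of the 5 lipid hydrolases, 2 were called higher and none lower, beside 16.6% and 15.9% of all genes, and the group was not tested. Asah1, the acid ceramidase of Farber disease (chr8:41340197-41374773, minus strand), had 468, 471, 498 and 579 CPM in GFP+ and 245, 276, 336 and 340 CPM in GFP- libraries. The log2 fold change was 0.75 (SE 0.14, adjusted p = 0.00530). Lipa, the acid lipase that frees cholesterol and fatty acids and is lost in Wolman disease, had 153, 118, 115 and 138 CPM in GFP+ and 63.5, 80.1, 98 and 81.0 CPM in GFP- libraries. It rose by 0.70 (SE 0.15, adjusted p = 0.00886). Npc2, a lipid transfer protein that hands cholesterol to the membrane protein Npc1, had 1269, 1160, 1002 and 1062 CPM in GFP+ and 639, 621, 818 and 742 CPM in GFP- libraries, and rose by 0.67 (SE 0.14, adjusted p = 0.00722). The partner Npc1 had a log2 fold change of -0.26 (adjusted p = 0.183). For Asah1, Lipa and Npc2 the sorts did not overlap. Of the other lipid hydrolases, Smpd1, acid sphingomyelinase, had 0.21 (adjusted p = 0.163) and Ppt1, a palmitoyl thioesterase, -0.22 (adjusted p = 0.122). Naaa, which hydrolyzes N-acylethanolamines, spread widely in MLCs, with 43.5, 55.6, 7.26 and 9.82 CPM in GFP+ and 31.4, 30.8, 25.2 and 28.9 CPM in GFP- libraries. The i.v.-dosed GFP+ libraries lay above all GFP- libraries and the i.c.v.-dosed below them, so that the log2 fold change over the sorts was 0.00 (SE 0.56, adjusted p = 0.998).

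Of the activators, Gm2a, which presents ganglioside to hexosaminidase A (chr11:55098115-55113029, plus strand), had 223, 270, 127 and 119 CPM in GFP+ and 104, 101, 118 and 116 CPM in GFP- libraries. It was called higher (log2 fold change 0.75, SE 0.25, adjusted p = 0.0462), with the i.v.-dosed GFP+ libraries far above the rest and the i.c.v.-dosed ones just above them. The adjusted p was 0.103 with the mouse as a block, and 2 of 8 fits that left out a library kept the call, those without MLCs of either i.c.v.-dosed mouse (adjusted p up to 0.117 in the others). Psap, the precursor of the saposins, stood at 1806, 1804, 2021 and 1802 CPM in GFP+ and 1163, 1365, 1736 and 1413 CPM in GFP- libraries, a log2 fold change of 0.39 (adjusted p = 0.0619) with all GFP+ libraries above all GFP- libraries. Grn, progranulin, a protein split into granulins in the lysosome, had 760, 808, 932 and 966 CPM in GFP+ and 709, 792, 801 and 799 CPM in GFP- libraries. The log2 fold change of Grn was 0.16 (SE 0.12, adjusted p = 0.330). Lamp1, a main glycoprotein of the lysosomal membrane (chr8:13159161-13175338, plus strand), had 1030, 961, 1095 and 1150 CPM in GFP+ and 610, 654, 765 and 759 CPM in GFP- libraries, and rose by 0.60 (SE 0.12, adjusted p = 0.00759). Its sister Lamp2 had -0.03 (adjusted p = 0.858), Mcoln1, a lysosomal calcium channel, -0.02 (adjusted p = 0.876) and Cln3, a membrane protein of juvenile Batten disease, 0.18 (adjusted p = 0.168).

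**Figure D2:**
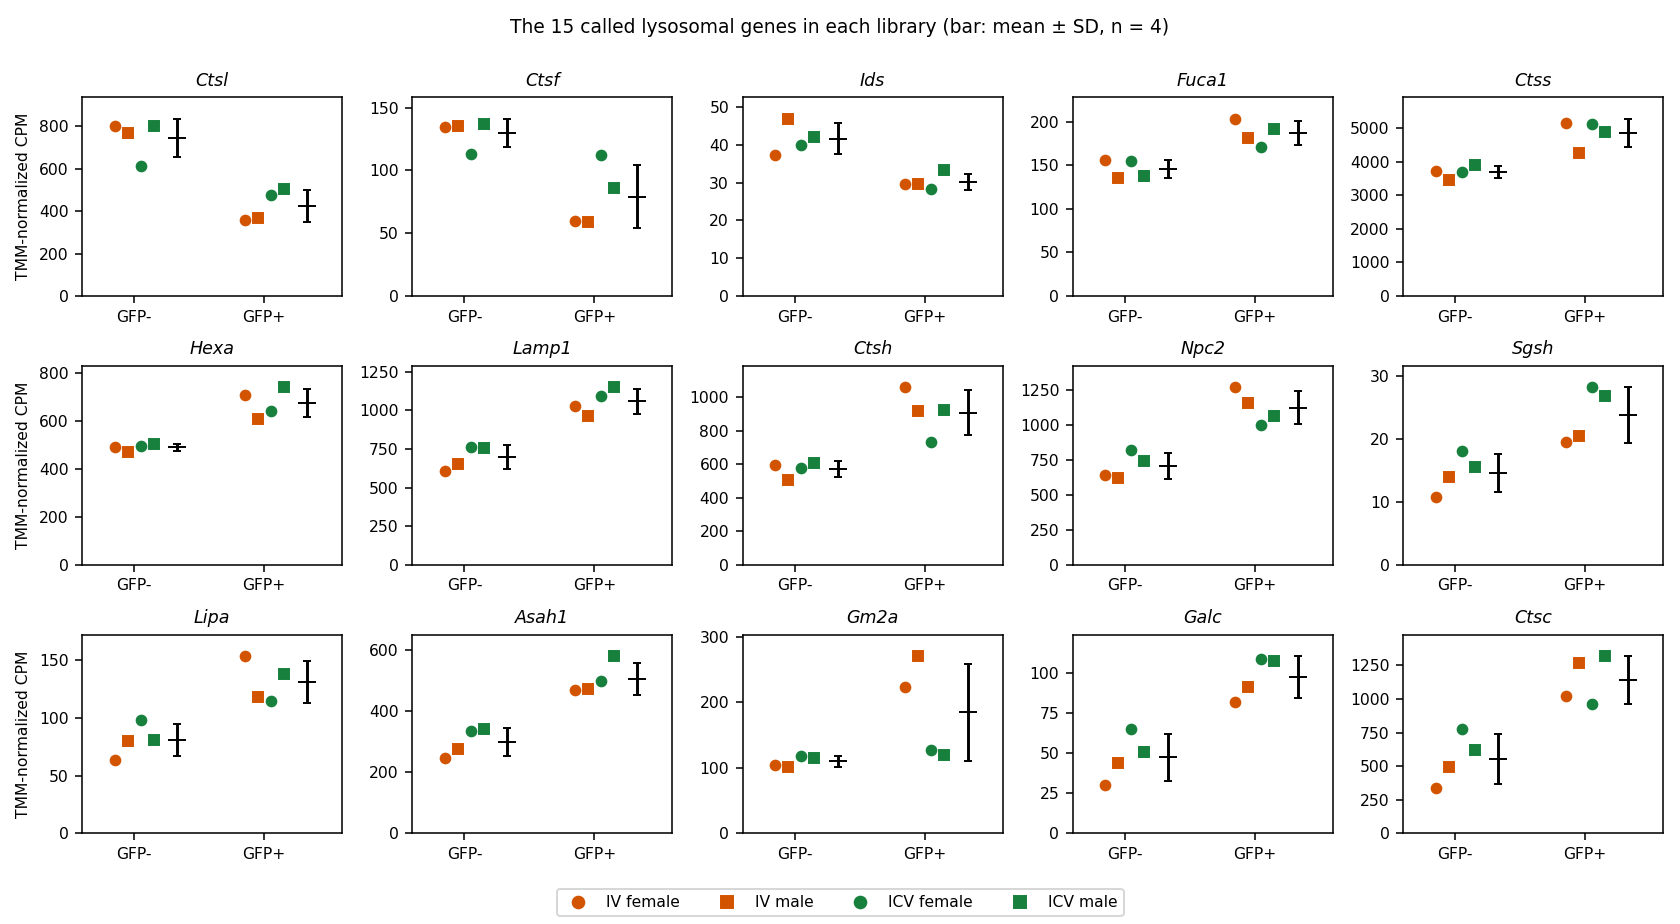
TMM-normalized CPM of the 15 lysosomal genes called between the sorts, 1 panel per gene, with GFP- libraries at left and GFP+ libraries at right, colors for route, symbols for recipient sex, and bars for the mean ± SD (n = 4). In every panel the sorts do not overlap, while for Ctsf the i.c.v.-dosed female comes close, at 112 CPM in GFP+ and 113 CPM in GFP- cells.

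Sorted by the disease in which they are mutated, 4 of 9 sphingolipidosis genes rose and none fell, with a median log2 fold change of 0.44. Of the 3 genes of cholesterol or neutral lipid storage, 2 rose (median 0.67). Among 9 mucopolysaccharidosis genes 1 rose and 1 fell, among 6 of neuronal ceroid lipofuscinosis none rose and 1 fell, and among 6 of glycoproteinosis 1 rose. A gene of more than 1 such group counts in each, and over all genes tested 16.6% rose, 15.9% fell and the median was 0.01. No group was tested, and nothing is read from these small counts. Lysosomal genes outside the 46 were read from 5 other lists. Of these 57 genes 56 were tested, 14 rose and 5 fell, with a median of 0.10, a called share near the 32.5% of all genes. The proton pump (V-ATPase) had 5 of 17 higher and 2 lower, other membrane proteins 4 of 11 higher and 1 lower, other hydrolases 3 of 15 higher, protease inhibitors 1 of 3 tested higher, and targeting and biogenesis genes 1 of 10 higher and 2 lower. Among the called genes of these lists, the largest changes were those of Acp5, an acid phosphatase at 9.30 ± 5.19 against 2.29 ± 2.47 TMM-normalized CPM (SD, n = 4 each; log2 fold change 2.00, adjusted p = 0.0368), the tetraspanin Cd63 (0.96, adjusted p = 0.00590) and Tmem192 (0.78, adjusted p = 0.00387) on the higher side, and the sorting receptor Sort1 (-1.48, adjusted p = 0.000939), the chloride exchanger Clcn7 (-0.61, adjusted p = 0.00847) and the pump subunit Tcirg1 (-0.51, adjusted p = 0.0189) on the lower side.

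These calls depend on how libraries were scaled and on depth per cell. TMM factors were 0.859 to 0.967 in GFP+ and 1.04 to 1.16 in GFP- libraries, and with library totals in their place the median over all genes moved to -0.27, the calls to 6.55% higher and 32.3% lower, and those of the members to 6 higher and 9 lower. Every one of the 15 kept its sign, and Asah1, Ctsc, Ctsf, Ctsh, Ctsl, Galc, Ids, Lipa and Npc2 kept their call. With every cell thinned to 500 UMIs, 5.83% of 9596 genes were called higher and 7.34% lower, and of the members 3 higher (Ctsc, Galc and Sgsh) and 5 lower (Ctsf, Ctsl, Ids, Lgmn and Naglu). Ctsc, Ctsf, Ctsl, Galc and Ids were thus called with TMM, with library totals and with thinned cells. With the sums drawn down to the thinned totals, 1062 of 9347 genes were called higher and 1060 lower. Of the members 9 were called higher and 2 lower, and Ctsf, Ctss, Fuca1 and Gm2a lost their call.

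The cells of each library were next split by the markers they held, a split that was added after the first results had been seen. One class held at least 3 microglia markers and no other list (4215 GFP+ and 12527 GFP- cells), the other at least 3 CAM markers and no monocyte or dendritic cell list (2959 GFP+ and 908 GFP- cells). Microglia markers were not excluded from the second class. At least 3 of them were found in 6845 GFP+ and 13400 GFP- cells in all, so most cells of the second class held them too. The classes thus set cells with microglia markers alone against cells that mostly held both lists. In cells with microglia markers alone, 18.8% of 10749 genes were called higher and 17.3% lower, and of the members 15 were higher and 3 lower. All 15 calls from the whole sorts were kept, and Ctsa (log2 fold change 0.35, adjusted p = 0.0217), Ctsb (0.68, adjusted p = 0.00870) and Psap (0.47, adjusted p = 0.0204) were added. These calls rest on the TMM scale. On library totals the levels in this class were 527 ± 27.5 and 510 ± 24.8 CPM for Ctsa, 125 ± 11.0 and 118 ± 9.75 for Gm2a, and 1829 ± 148 and 1626 ± 215 for Psap in GFP+ and GFP- cells (SD, n = 4 each). Several members without a call lay lower in GFP+ on that scale with no overlap, such as Man2b1 (494 ± 45.8 and 694 ± 57.9) and Ppt1 (163 ± 5.45 and 229 ± 19.3). Others, such as Asah1 (468 ± 36.2 and 310 ± 29.8), stayed higher. Library totals were not tested within this class, so the balance of higher and lower members holds for the TMM scale only. In cells with CAM markers, 0.0102% of 9841 genes were called higher and 0.234% lower, 730 genes had an unadjusted p under 0.05, and no member was called, with 5 members at an unadjusted p under 0.05. The direction matched that of the whole sorts for 12 of the 15 genes, Ctsc, Ctsf and Ids being the exceptions. Mean UMIs per cell were 2966 to 4663 in GFP+ and 1316 to 1840 in GFP- cells with microglia markers alone, and 6775 to 7730 and 4861 to 5418 in cells with CAM markers, and the part of this depth in the class results was not tested.

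Whether the sort difference itself differed between the classes was tested in 1 fit with the library as a block, over 10928 genes, of which 21.1% were called. The log2 difference of GFP+ over GFP- was more positive in cells with microglia markers alone than in cells with CAM markers for 13.9% of genes and more negative for 7.17%. It was more positive for 13 members and more negative for 3, Ctsf, Ctsl and Ids, which had the wider gap in the cells with microglia markers alone. Ctsc stood at 974 ± 177 CPM (library totals, SD, n = 4) in GFP+ and 477 ± 138 in GFP- cells with microglia markers alone, but at 1227 ± 136 and 1307 ± 169 in cells with CAM markers, a difference of differences of 1.41 on the log2 scale (adjusted p = 8.3981e-06). Galc stood at 87.1 ± 10.9 and 44.4 ± 12.1 in the first class and at 96.8 ± 7.10 and 86.6 ± 13.0 in the second (1.02, adjusted p = 6.9462e-05). In both genes, then, the GFP- cells with CAM markers lay near the GFP+ cells with CAM markers. The GFP- cells with microglia markers alone lay below the GFP+ cells of either class. Ctsf showed the mirror image, with 84.3 ± 24.3 and 165 ± 14.9 in cells with microglia markers alone and 81.6 ± 20.4 and 81.0 ± 6.92 in cells with CAM markers (-0.71, adjusted p = 0.000332). Ctsl read 488 ± 56.5 and 935 ± 119 in the first class and 409 ± 46.2 and 476 ± 96.7 in the second (-0.44, adjusted p = 0.0358), and Ids 28.3 ± 4.12 and 51.2 ± 8.26 in the first and 25.6 ± 0.863 and 24.1 ± 3.84 in the second (-0.62, adjusted p = 0.0239). On library totals Hgsnat was lower in GFP+ in both classes, with the wider gap in the second. It stood at 19.5 ± 1.19 and 24.6 ± 1.82 in the first and 25.6 ± 4.79 and 55.6 ± 20.1 in the second (0.90, adjusted p = 0.0142). Neu1 too was lower in GFP+ in both classes on library totals, within the spread of libraries in each. It stood at 79.0 ± 11.8 and 91.1 ± 14.3 in the first and 77.9 ± 9.07 and 97.8 ± 18.3 in the second. The calls of this fit were made on the TMM scale. Those of Hgsnat and Neu1 were lost with library totals, as were those of Fuca1, Hexa, Lamp1, Lipa and Sgsh. The other members with a more positive difference were Asah1 (0.74), Npc2 (0.68), Ctsb (0.66), Sgsh (0.66), Ctsh (0.63), Lamp1 (0.54), Lipa (0.47), Fuca1 (0.41) and Hexa (0.41), with 0.37 for Neu1. Asah1, Ctsb, Ctsc, Ctsf, Ctsh, Galc, Hexa, Lamp1 and Npc2 kept this call in all 8 fits that left out a library, and 1 member stayed on the more negative side without endogenous microglia of the i.c.v.-dosed male or MLCs of the i.v.-dosed male. With library totals 6 members were called more positive and 11 more negative, and the median over all genes was -0.27.

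The share of single cells with a transcript gave a view that does not rest on a few deep cells. With cells reduced to 500 UMIs each and shallower cells left out, Galc was found in 6.27% ± 0.718 of GFP+ and 2.58% ± 0.696 of GFP- cells (SD, n = 4 libraries each), with 1.31% in naive astrocytes. Ctsc was found in 37.0% ± 4.91 and 21.3% ± 5.90, with 0.262% in naive astrocytes, a cell type that should hold little of it. Ctsl was found in 13.1% ± 1.31 of GFP+ and 29.8% ± 3.34 of GFP- cells, and Ids in 1.54% ± 0.415 and 2.89% ± 0.390. Ctsf was found in 3.37% ± 0.905 and 7.65% ± 1.02, with none in PBMCs. These shares run in the direction of the summed counts. For Ctss they did not, with 64.6% ± 7.03 of GFP+ and 74.6% ± 3.42 of GFP- cells, and the summed thinned counts gave a log2 fold change of -0.06, so no order is read for it. Without thinning, the shares were 23.3 and 7.57% for Galc, 68.8 and 38.4% for Ctsc, 42.4 and 49.98% for Ctsl, 9.15 and 6.89% for Ids and 18.3 and 18.3% for Ctsf, in GFP+ and GFP- cells of unequal depth.

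**Figure D3:**
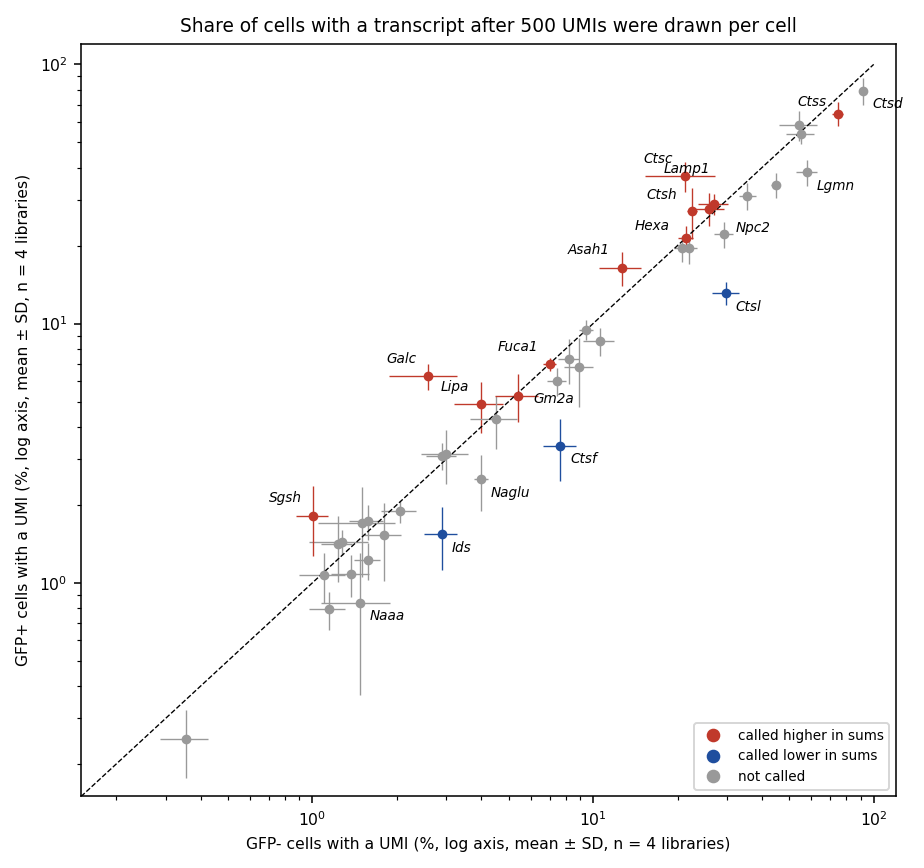
Percent of GFP+ cells (y axis) against percent of GFP- cells (x axis) with a UMI of each lysosomal gene after 500 UMIs were drawn per cell, both axes logarithmic, with points for the mean and bars for the SD over 4 libraries and a dashed line of equal shares. Galc (6.27 against 2.58%) and Ctsc (37.0 against 21.3%) lie above the line, and Ctsl, Ctsf, Ids and Lgmn (38.3 against 57.7%) below it.

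The promoters of these genes were searched for the E-box CACGTG, which is the core of the site bound by TFEB, a regulator of lysosomal genes. RefSeq windows of 250 bases before to 50 after a start (GRCm38.p6) were found for 39 of the 46 genes, in 43 windows. CACGTG, a palindrome that reads the same on both strands, was in 15 of the 43 windows (34.9%) and in 7.15% of all 32851 windows. The nested TCACGTGA was in 14% against 0.974%. CACGTG was present for 4 of 13 called members with a window and for 11 of 25 that were not called, so it was not more frequent among the called ones. The stretches around the matches of the 4 called genes, and of 2 genes that were not called, are shown here from 5′ to 3′ on the strand of the gene with each CACGTG in capitals. Lamp1 lies at chr8:13159088-13159160 on the plus strand, with 4 matches between 61 and 15 bases before the start. Ctsf lies at chr19:4855074-4855103 (plus), Ctsl at chr13:64370739-64370768 (minus), Sgsh at chr11:119355522-119355551 (minus), Lgmn at chr12:102439124-102439153 (minus) and Glb1 at chr9:114401018-114401047 (plus). Starts here are those of RefSeq. By the GENCODE positions, the stretches of Ctsl and Lgmn lie inside their genes and that of Sgsh reaches into its gene. The Ctsl stretch overlaps 1 annotated exon and the Sgsh stretch 2.
Lamp1: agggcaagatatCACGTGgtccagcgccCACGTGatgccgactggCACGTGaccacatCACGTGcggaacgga
Ctsf: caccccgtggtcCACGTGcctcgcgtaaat
Ctsl: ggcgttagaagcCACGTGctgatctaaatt
Sgsh: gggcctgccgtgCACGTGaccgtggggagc
Lgmn: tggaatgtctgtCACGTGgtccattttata
Glb1: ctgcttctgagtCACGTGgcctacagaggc
The genes with the motif went up (Lamp1, Sgsh), down (Ctsf, Ctsl) or were not called in MLCs. A match of letters is a description and not evidence of binding.

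The route of dosing was compared within each sort, 2 against 2 libraries in a fit to all 8. In MLCs 2.78% of 12540 genes were called (2.56% higher and 0.215% lower in i.v.-dosed mice), and 3 members were among them, 2 higher and 1 lower. Naaa (chr5:92257659-92278170, minus strand) stood at 49.5 ± 8.53 CPM in i.v.-dosed and 8.54 ± 1.81 CPM in i.c.v.-dosed GFP+ libraries (SD, n = 2 each), a log2 difference of 2.51 (SE 0.19, adjusted p = 0.00128). Gm2a stood at 247 ± 33.3 and 123 ± 5.78 CPM, a log2 difference of 0.99 (SE 0.13, adjusted p = 0.00737), lost without either i.c.v.-dosed GFP+ library (adjusted p up to 0.0763). Ctsf was lower in i.v.-dosed mice, at 59.3 ± 0.148 and 99.1 ± 18.2 CPM (log2 difference -0.75, SE 0.16, adjusted p = 0.04996), a call at the threshold that no fit without 1 library kept (adjusted p up to 0.408). There were 12 of 45 members and 2066 of 12540 genes at an unadjusted p under 0.05. In endogenous microglia 0.0% of genes were called by edgeR, with 1063 at an unadjusted p under 0.05, while DESeq2 called 1 higher and 67 lower. No member was called by either tool there, and Galc, Ctsc, Asah1, Sgsh and Ctsb had an unadjusted p under 0.05.

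The sort difference depended on the route for 1.91% of genes (1.8% with a more positive difference in i.v.-dosed mice), and for 2 members, Naaa (2.31 on the log2 scale, adjusted p = 0.00949) and Gm2a (1.17, adjusted p = 0.0228). Naaa kept this call in all 8 fits that left out a library, Gm2a in 2 of 8, those without a GFP+ library of an i.v.-dosed mouse (adjusted p up to 0.119 in the others), and for Ctsf the difference was -0.87 (adjusted p = 0.0976). Within i.c.v.-dosed mice alone Naaa was lower in MLCs than in endogenous microglia (log2 fold change -1.66, adjusted p = 0.00996). Among all members, the sort test gave 9 higher and 4 lower in i.v.-dosed mice alone and 4 higher and 1 lower in i.c.v.-dosed mice alone, where Asah1, Galc, Lamp1 and Sgsh kept their call. Over all genes it called 1775 higher and 1479 lower of 12039 in i.v.-dosed mice. In i.c.v.-dosed mice it called 283 higher and 748 lower of 11861, so calls were fewer there over all genes too.

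Markers of other cells moved with these route differences. Monocyte markers summed to 362 to 435 CPM (library totals) in i.v.-dosed and 2.49 to 3.48 CPM in i.c.v.-dosed GFP+ libraries, where 3 to 4 of the 8 were at 0, dendritic cell markers to 262 to 417 and 12.3 to 46.4 CPM, and neutrophil markers to 1604 to 3068 and 112 to 120 CPM. Cells with at least 3 monocyte or dendritic cell markers numbered 116 and 79 in the 2 i.v.-dosed GFP+ libraries and 0 in both i.c.v.-dosed ones. In those 116 and 79 cells Gm2a stood at 643 and 670 CPM and Naaa at 113 and 138 CPM (library totals of the class). The 169 naive PBMCs with such markers had 604 CPM of Gm2a and 158 CPM of Naaa, and the whole PBMC library 505 and 122 CPM. In GFP+ cells with microglia markers alone, Gm2a read 141 and 120 CPM in i.v.-dosed against 121 and 117 CPM in i.c.v.-dosed mice, and Naaa 27.8 and 18.2 against 11.2 and 10.8 CPM. The Gm2a levels of the routes thus overlapped within this class, while those of Naaa did not. In cells that reached no marker list, Gm2a read 298 and 308 against 71.7 and 81.1 CPM, and Naaa 69.3 and 105 against 5.03 and 11.2 CPM. Leaving out all cells with markers of other types kept both calls (log2 difference 2.34 for Naaa and 0.97 for Gm2a), and with cells thinned to 500 UMIs neither was called (1.39, adjusted p = 0.291, and 0.60, adjusted p = 0.567). The part of these cells in the differences of whole libraries was not tested further.

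**Figure D4:**
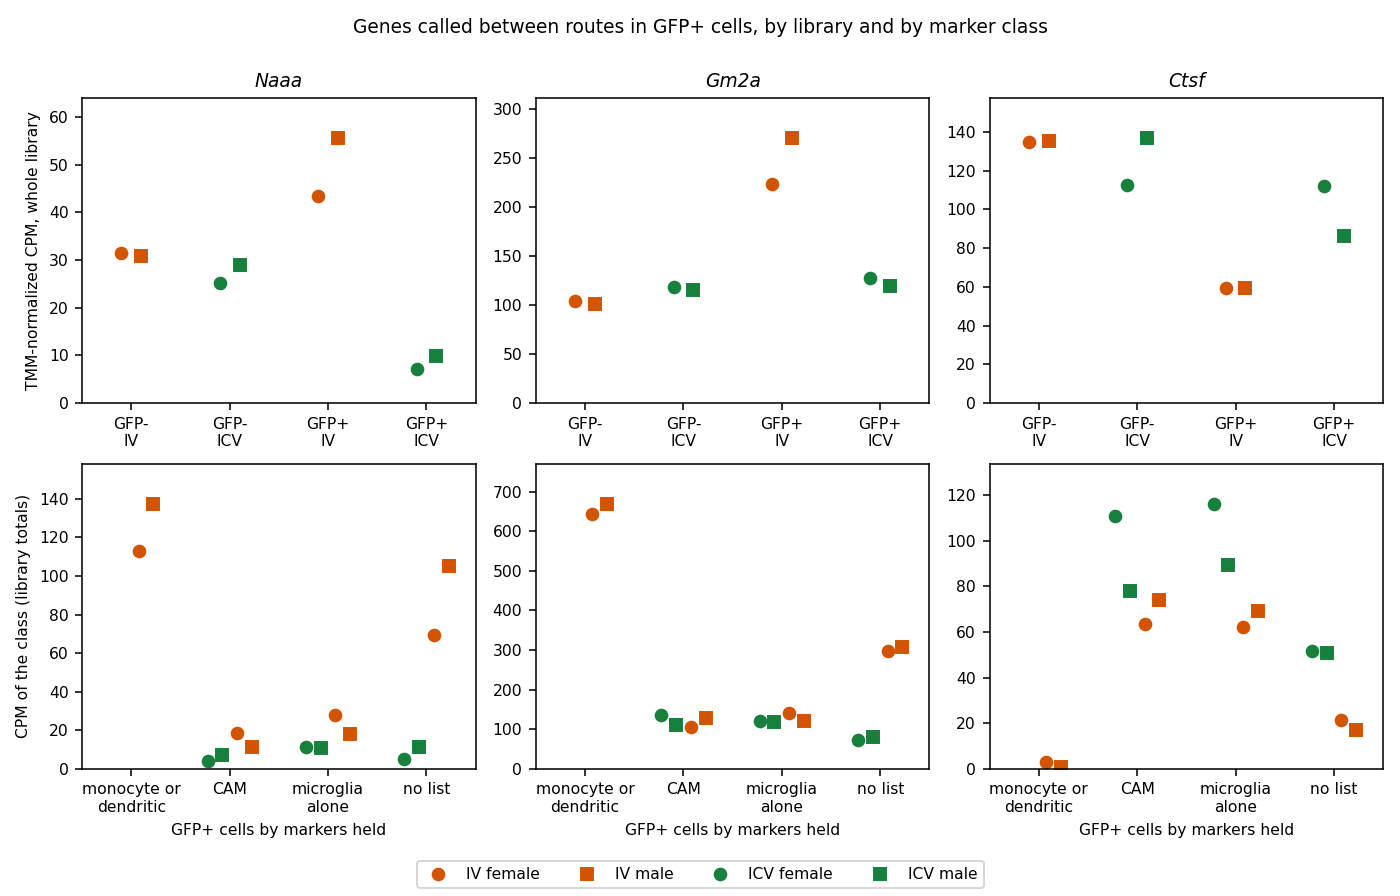
Naaa, Gm2a and Ctsf by route. The upper row gives TMM-normalized CPM of whole libraries by sort and route, and the lower row the CPM (library totals) of GFP+ cells split by the markers they held, with 1 point per library. Gm2a reaches 643 and 670 CPM in cells with monocyte or dendritic cell markers, which among GFP+ libraries only the i.v.-dosed hold, and lies between 106 and 141 CPM in the CAM and microglia classes of both routes. In cells that reached no list, Gm2a reads 298 and 308 CPM in i.v.-dosed and 71.7 and 81.1 CPM in i.c.v.-dosed GFP+ libraries.

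Recipient sex was compared because Gla, Ids and Lamp2 are X-linked in the mouse. No member was called in either sort, where 0.0319% of genes were called in GFP- and 0.0% in GFP+ cells. The edgeR fit called no gene higher in female GFP- cells. The paper, however, ties a sex split of its microglia clusters largely to Xist and Tsix. A test of 2 against 2 libraries may miss such a difference, so nothing is read from the lack of calls. In GFP- cells 310 genes and no member had an unadjusted p under 0.05, and in GFP+ cells, whose donors were all male, 455 genes and 1 member (Gla, log2 difference of female over male recipients -0.83, adjusted p = 0.966). DESeq2 called 3 genes in GFP+ cells. In GFP- cells the log2 differences were -0.40 for Gla, -0.21 for Ids and -0.04 for Lamp2.

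The naive libraries place the members among brain and blood cells, without replicates and so without a test. All values here are CPM of library totals, and a gene counted as different at 2-fold or more with at least 10 CPM in the higher library. Naive microglia were above naive astrocytes for 26 of 45 members (21.7% of all genes) and below for 3 (31.6%). The largest excess was in Ctss, at 4464 against 4.58 CPM (974.9-fold), and Ctsc, at 572 against 6.66 CPM (85.9-fold), followed by Ctsh (25.4-fold), Ctsd (23.1-fold) and the mannosidase gene Man2b1 (22.0-fold). The members below were Smpd1, at 25.3 against 125 CPM, Gla, at 5.06 against 10.6 CPM, and Ctsk, with no count in naive microglia and 13.9 CPM in astrocytes, at least 4.59-fold lower against a floor of 3 counts. Against the neuron sort, microglia were above for 27 of 44 members (28.4% of all genes) and below for 3 (25.4%). Here Ctsc was 354-fold, Ctsh 145-fold, Ctsd 31.0-fold and Man2b1 30.3-fold higher, while Ctss had at most 3 counts in the neuron sort, and Ctsk (at least 13.9-fold), Smpd1 (3.12-fold) and Npc1 (2.02-fold) were lower in microglia. Against PBMCs, microglia were above for 23 of 45 members (21.2% of all genes), led by Ctsf at 193 against 2.66 CPM (72.7-fold), Lgmn (23.8-fold), Ctsl (16.2-fold), Ctsd (14.1-fold) and Arsb (9.58-fold), and below for 3 (13.8%), Gla (5.18-fold), Gm2a (2.33-fold) and Hgsnat (2.05-fold).

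Naive microglia were also set against endogenous microglia of treated mice, 1 library against 4 and without a test. Of 44 members, 15 lay below, 10 inside and 19 above the range of the 4 GFP- libraries. By 2-fold or more, none lay above (1.56% of all genes did) and 1 below (2.19%), Gla, at 5.06 CPM against 18.5 to 40.6 CPM. The naive microglia held 987965 UMIs in all, so their Gla level rests on few counts, here and in the folds above. Among the genes that differed between the sorts, naive microglia had 26.3 CPM of Galc, 11.1 of Sgsh, 193 of Ctsf and 72.9 of Ids, each outside the GFP- range on the side away from the GFP+ libraries, as were Fuca1 (145) and Lipa (64.8). Hexa (589 CPM), Asah1 (396), Gm2a (217), Lamp1 (842) and Ctss (4464) lay outside it on the side of the GFP+ libraries. Some of these positions rest on few counts (Sgsh and Galc) or on small gaps. The nearest GFP- library had 150 CPM of Fuca1, 72.0 of Lipa, 559 of Hexa, 369 of Asah1 and 824 of Lamp1. Counting error of the naive library was not set against these gaps, so the sides of these genes are not firm. The sides named are those of the sort difference on the TMM scale. On library totals the sorts overlapped for Sgsh, Fuca1, Lipa, Hexa, Gm2a and Ctss, the last at 3655 to 4966 CPM in GFP+ and 3821 to 4241 CPM in GFP- libraries. Ctsc (572 CPM), Ctsl (870 CPM), Npc2 (785 CPM) and Ctsh (625 CPM) fell inside the GFP- range. Age, treatment and depth differ between these libraries and cannot be told apart. PBMCs were set against the GFP+ range in the same way, and 35 of 45 members lay below it, 3 inside and 7 above. Of these, 17 were below by 2-fold or more and 5 above (11.0% of all genes in each direction). The 5 were Ids (64.6 CPM), Galns (14.1), Gm2a (505), Hgsnat (91.2) and Naaa (122), and the lowest relative to MLCs included Ctsf, Galc (7.98 against at least 71.7 CPM in GFP+) and Ctsd (453 against at least 4961 CPM). The members took 2.76% of UMIs in naive microglia, 0.9998% in PBMCs, 0.554% in the neuron sort and 0.494% in astrocytes.

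**Figure D5:**
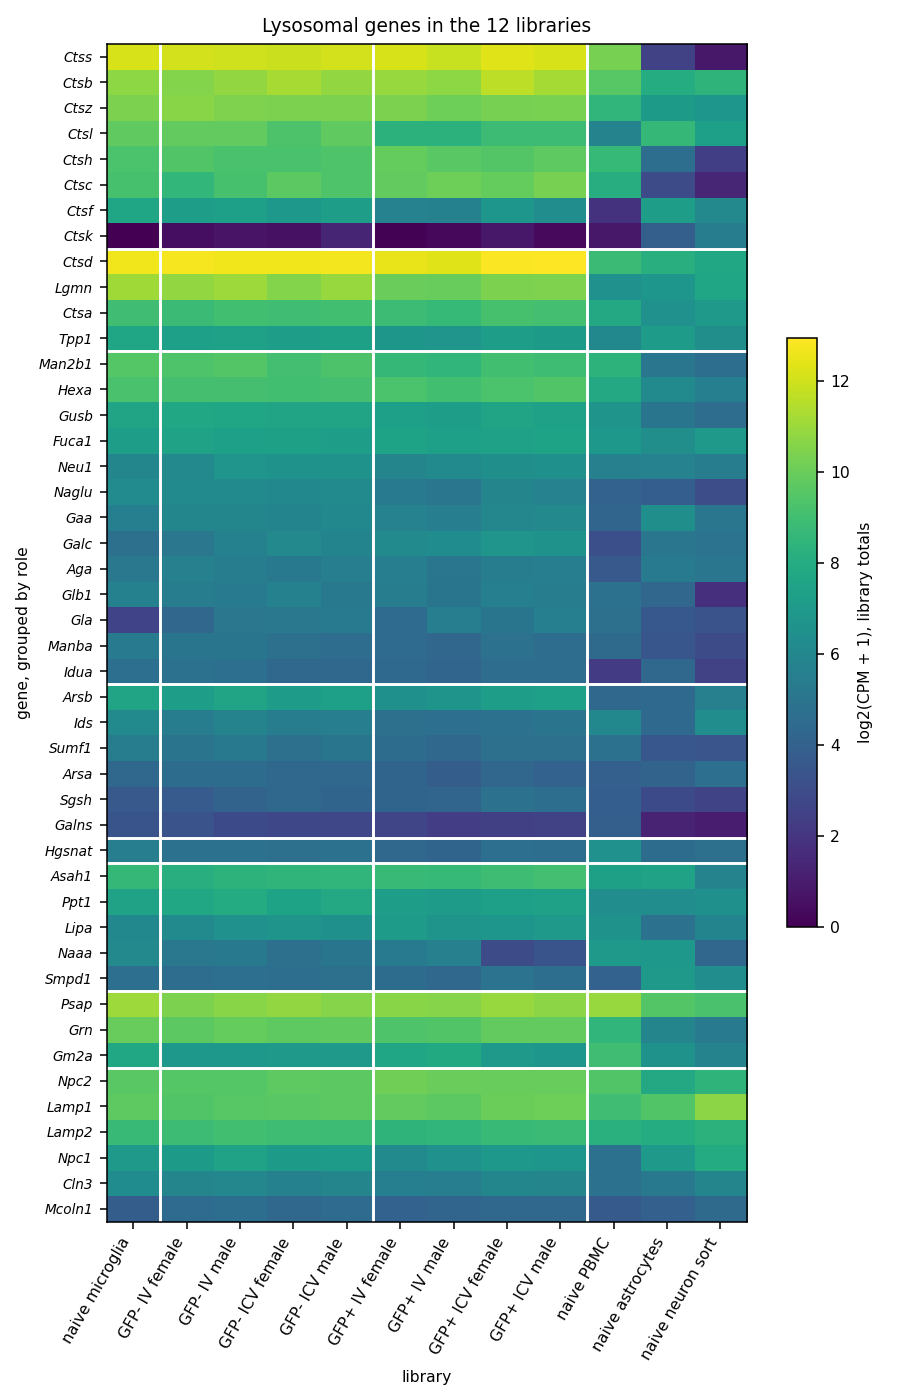
Heat map of log2(CPM + 1), library totals, for the 46 lysosomal genes (rows, grouped by role) in the 12 libraries (columns), with white lines between roles and between naive microglia, GFP-, GFP+ and the other naive libraries. Ctss, at 4464 CPM in naive microglia and 4.58 CPM in astrocytes, separates the myeloid libraries from the neural ones, and Ctsf, at 2.66 CPM, is lowest in PBMCs among the libraries.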

How the data were processed

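The authors aligned and counted reads with Cell Ranger (3.1.0 per the file headers, build mm10), and the deposited values are raw counts of UMIs per gene and barcode, without normalization. Features listed number 31054 in treated and 31053 in naive libraries.

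Barcodes under 200 genes or above 10% mitochondrial UMIs were removed, doublets were not called, and counts were summed per library. Genes that passed filterByExpr were tested with edgeR 4.0.16 (R 4.3.3) by two-sided quasi-likelihood F tests after TMM scaling, with Benjamini-Hochberg adjustment over all genes tested, and an adjusted p under 0.05 was a call. This test gave the adjusted p-values printed. DESeq2 1.42.0 was an alternative. Each fit was tested on simulated data. GFP+ and GFP- cells of 1 mouse pair by design, and the correlations of their deviations from the sort means over genes were 0.205, -0.275, -0.331 and 0.0130.

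Marker classes required at least 3 markers of a list. Shares of cells used 500 UMIs per cell, drawn with seed 1. Single libraries were compared at 2-fold and 10 CPM. Intervals and floors cover counting error only. Gene positions came from GENCODE for GRCm38. The planned comparison of protein sequences was not run. Genes named with every library are those called between sorts or routes over whole libraries, the 3 of highest mean CPM, Grn, and 1 per role group without such a gene. Ctsa and Psap, called in a marker class, were added after their values were seen. The 46 genes and all lists were chosen with earlier results of these data known. Python 3.11.15, numpy 2.4.6, scipy 1.17.1, pandas 2.3.3 and matplotlib 3.10.9 were used.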

Additional observations from a re-analysis of the deposited data

Results flagged for a closer look

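Of 40 groups of 4 libraries examined over 20 genes, where chance flags about 1 in 20, 2 had a library apart from the others by Dixon's ratio of gap to range at the 95% limit. Ctsf in endogenous microglia of the i.c.v.-dosed female was 112.8 CPM (TMM-normalized) with a ratio of 0.903, below the 3 other GFP- libraries. Grn in endogenous microglia of the i.v.-dosed female was 708.6 CPM with a ratio of 0.898, below the 3 others.

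The difference between the sorts was not the same for both routes in Gm2a, by 1.17 on the log2 scale (adjusted p = 0.0228), and in Naaa, by 2.31 (adjusted p = 0.00949), by edgeR's test of the interaction.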

How the results depend on the processing

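The counts of members called between the sorts were 12 higher and 3 lower, and moved to 3 and 5 with cells thinned to 500 UMIs, 4 and 1 in i.c.v.-dosed mice only, 6 and 9 with library totals, and 0 and 0 in cells with CAM markers. Leaving out 1 library gave 8 to 12 higher and 2 to 4 lower. With the mouse as a replicate block there were 11 higher and 3 lower, with Ctss and Gm2a lost and Ctsb gained, and the block ended no other call between the sorts. The route calls in MLCs were 2 higher and 1 lower. Thinning left 0 and 0. The lower call, Ctsf, was 0 with GFP+ libraries alone, the stricter barcode filter, drawn-down sums or without other-marker cells, and 2 were lower with recipient sex as a covariate. Leaving out 1 library gave 1 to 2 higher and 0 lower. The interaction calls fell from 2 to 0 with thinned cells and to 1 with library totals or the stricter filter, and to 1 to 2 without 1 library, with 0 lower. Route in GFP- and sex gave 0 throughout these left-out fits. The class calls of 13 and 3 became 6 and 11 with library totals and 9 to 12 and 1 to 3 without 1 library.

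Log2 values that changed sign were those of Ctsc (-0.066), Ctsf (0.045), Ids (0.063) and Naaa (-0.40) in cells with CAM markers, of Ctss (-0.059), Naaa (-0.71), Ctsd (-0.15) and Grn (-0.11) with thinned cells, of Naaa (-0.33), Ctsd (-0.028) and Grn (-0.12) with library totals, and of Hgsnat (0.022) and Naaa (-1.66) in i.c.v.-dosed mice only. Naaa between the sorts, 0.00 in the main fit, was also -0.67 with microglia markers alone, -0.042 with all barcodes, -0.0076 with DESeq2, -0.0033 with sex and -0.43 with route as covariate, -0.44 with the mouse block, -0.21 with drawn-down sums, -0.056 with upper-quartile scaling and -0.50 to 0.31 without 1 library (-0.000898, -0.059, -0.28 and -0.50 where negative). Naaa between routes in GFP- was -0.052 with drawn-down sums. Between the sexes in GFP- cells, Gla ranged from -1.04 to 0.036 and Lamp2 from -0.14 to 0.064 without 1 library, and Lamp2 0.0025 with the stricter filter and 0.0056 with drawn-down sums. The causes were not tested.

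The share of GFP- UMIs on the members was 2.57% with thinned cells. Members below in naive microglia were 1 against astrocytes with all barcodes, 6 against the neuron sort and 5 against PBMCs with the stricter filter. The GFP+ to GFP- ratio of the share of cells with Galc was 2.53 at 500 UMIs, 1.97 at 1000 and 3.28 at the cells' own depth, and that of Ctsl 0.446, 0.630 and 0.850. Library totals, drawn-down sums and the marker classes were chosen after seeing the data.

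The naive microglia, with a median of 425 UMIs per cell, limit every comparison with them.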
